A study of Mus musculus with 10 samples.

Results

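Tomato hybrid cells (THC) of the mouse mammary gland were set against the midpoint between Tomato basal cells (TBC) and Tomato luminal cells (TLC), to find genes whose level in the hybrid cells was not the average of both lineages. The comparison used 6 of the 10 RNA sequencing libraries of the series, 2 for each of these populations, taken by the cell type in the sample labels. The 6 libraries were made from mammary cells sorted by flow cytometry and all carry the treatment label of luminal cell ablation, so the ablation was common to both sides of the comparison. The other 4 libraries, 2 of basal cells (BC) and 2 of luminal cells (LC) with no treatment label, the second of each marked WT and the first not, entered the estimate of the spread and are cited below as levels. Tomato is a red fluorescent reporter. The labels give no mouse line, age, driver of the reporter or way of ablation, and nothing in them ties a library to an animal, so p-values measure only the spread between these libraries.

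The mammary epithelium is a double layer. Outer basal or myoepithelial cells carry Krt5, Krt14 and the transcription factor Trp63, and contract through smooth muscle proteins such as Acta2 in answer to oxytocin. Inner luminal cells carry Krt8 and Krt18 and fall into hormone-sensing cells, which express the receptors for oestrogen, progesterone and prolactin and signal to their neighbours through Areg and Wnt4, and progenitor or alveolar cells under Elf5, which make milk. Cells that carry markers of both layers are called hybrid. A midpoint can be taken in 2 ways: as the mean of log2 levels, which is the geometric mean, or as the mean of levels, which is the arithmetic mean that equal parts of TBC and TLC RNA would give. The arithmetic mean is never below the geometric mean, and the gap grows with the difference between TBC and TLC.

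The lineage genes matched the labels. The mean log2 CPM (counts scaled to library size) of 20 basal genes was 9.63 and 9.37 in the TBC libraries, 8.20 and 8.06 in those of THC, and 6.09 and 5.73 in those of TLC. That of 20 pan-luminal genes ran the other way, with TBC at 5.55 and 5.30, THC at 7.01 and 7.03, and TLC at 7.53 and 7.59. The THC libraries thus lay between those of TBC and TLC for each list, with no overlap between populations. Counts assigned to genes were 2757773 and 13601753 in THC, 6730120 and 13270498 in TBC, and 5632671 and 9799263 in TLC, and 3 counts correspond to 1.16 CPM in THC replicate 1 and 0.202 CPM in THC replicate 2. THC replicate 1 also stood apart in reads without a unique alignment, at 43.0% against 14.6% to 22.4% in the other 9 libraries.

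Against the log2 midpoint, 75 of 19757 genes tested were higher in THC (0.380%) and 0 were lower (0%), by edgeR's quasi-likelihood test at a Benjamini-Hochberg adjusted p under 0.05. At an unadjusted p under 0.05, 1516 genes were higher (7.67%) and 186 lower. The smallest adjusted p among lower genes was 0.120. In simulated counts, the test found 16 of 50 genes set 2-fold above the log2 midpoint and 7 of 50 set 2-fold below. At 4-fold it found 46 and 41 of 50. In this single draw it thus recovered fewer lower than higher genes. For the arithmetic midpoint, a draw gave 7 higher and 11 lower genes at 2-fold, and 46 and 37 at 4-fold. Whether recovery had a part in the counts of 75 and 0 was not tested. The median difference from the log2 midpoint was 0.04 over all genes tested and 1.8 over the 75, which ranged from 0.98 to 5.31. The largest was that of Gm10718, at 15.1 and 2.90 CPM in THC from 39 and 43 counts. All 75 were protein coding and positive within both sets of library numbers (44 to 48 and 80 to 84). Against the arithmetic midpoint, 5 genes were higher (0.0253%) and 0 lower (0%), with 1017 and 407 at an unadjusted p under 0.05. These 5, Cyp24a1, Tmem56, Piezo2, Areg and Lcp1, were all among the 75.

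The count of 75 rested on the full set of libraries. Without THC replicate 2 it was 1 (Cd74), without TLC replicate 1 or TBC replicate 2 it was 3 in each case, without THC replicate 1 it was 11, and without TBC replicate 1 or TLC replicate 2 it was 16 and 28. Every one of the 75 stayed positive in all of these fits, and Cyp24a1, Tmem56 and Areg kept their call in 5 of the 6.

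**Figure D1:**
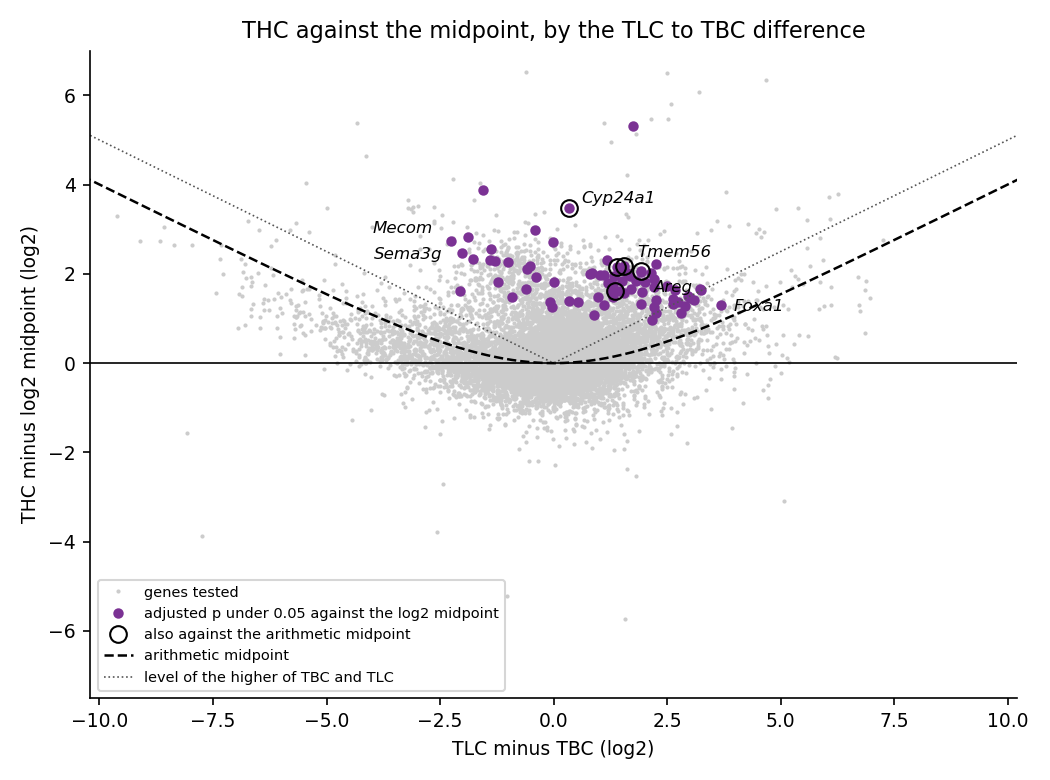
Each point is a gene tested, placed by the log2 difference of TLC from TBC (x axis) and of THC from the log2 midpoint (y axis). The 75 purple genes lie above 0, the 5 ringed ones also passed against the arithmetic midpoint (dashed curve), and points above the dotted line exceeded the higher of TBC and TLC.

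Cyp24a1, the mitochondrial enzyme that inactivates vitamin D hormone, was the gene furthest above both lineages among those that passed against both midpoints. Its level was 15.5 and 26.3 CPM in THC, 1.26 and 1.98 CPM in TBC, and 2.28 and 2.0 CPM in TLC. Both THC libraries were far above the other 4, and TBC and TLC lay close to each other. The difference from the log2 midpoint was 3.49 ± 0.34 (log2, SE; adjusted p = 0.00447, edgeR) and from the arithmetic midpoint 3.48 (adjusted p = 0.0165). The shallower THC library rests on 40 counts and TBC replicate 1 on 8. In the libraries without ablation label it was 2.35 and 2.21 CPM in BC, and 8.45 and 13.8 CPM in LC, below both THC libraries. The gene (ENSMUSG00000038567) lies on the minus strand of chromosome 2, from 170482708 to 170497145 in GRCm38.

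Tmem56, which encodes a multipass membrane protein, reached 370 and 498 CPM in THC against 58.7 and 52.6 CPM in TBC and 150 and 177 CPM in TLC. The order was TBC, TLC, THC with no overlap. The difference was 2.19 ± 0.20 from the log2 midpoint (log2, SE; adjusted p = 0.00412, edgeR) and 1.99 from the arithmetic one (adjusted p = 0.0165). Piezo2, a mechanically gated ion channel, stood at 71.7 and 75.3 CPM in THC, 12.6 and 8.14 CPM in TBC and 25.4 and 28.6 CPM in TLC. Lcp1, an actin-bundling protein best known from white blood cells, stood at 54.6 and 59.9 CPM in THC, 13.3 and 10.3 CPM in TBC and 27.9 and 31.9 CPM in TLC. For both genes the libraries again fell into the order TBC, TLC, THC. Piezo2 was 2.15 ± 0.24 and Lcp1 1.61 ± 0.18 above the log2 midpoint (log2, SE), with an edgeR adjusted p of 0.00646 for each. Tmem56 (ENSMUSG00000028132) lies on the minus strand of chromosome 3 from 121201761 to 121283098, and Lcp1 (ENSMUSG00000021998) on the plus strand of chromosome 14 from 75131101 to 75230842, in GRCm38.

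The hormone-sensing luminal genes held the most members above the log2 midpoint of the 24 gene lists. Of 14 members tested, 5 rose (Areg, Prlr, Wnt4, Cited1 and Foxa1) and 9 did not pass, while all 14 had positive differences. By comparison, 0.380% of all genes tested rose and 54.9% had positive differences. The median difference of the list was 1.60 against 0.04 for all genes, and against the arithmetic midpoint it was 1.15 against -0.02, with 14 and 9349 positive genes respectively. The list and the genes in it were chosen with earlier results of these data known.

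Promoters of the called hormone-sensing members were read from RefSeq (GRCm38.p6) as the 250 bases before the start, because these members were called against the same midpoint. All 5 had a window. Prlr and Cited1 had 3 windows each, of which only the one nearest the GENCODE gene start was read. The 3 genes with a motif match are shown, 5′ to 3′ on the gene's strand, with matches in capitals. The Areg window is chr5:91139349-91139598 (plus strand), the Cited1 window chrX:102252182-102252431 (minus strand) and the Foxa1 window chr12:57546112-57546361 (minus strand, 805 bases from the outermost GENCODE start).
Areg: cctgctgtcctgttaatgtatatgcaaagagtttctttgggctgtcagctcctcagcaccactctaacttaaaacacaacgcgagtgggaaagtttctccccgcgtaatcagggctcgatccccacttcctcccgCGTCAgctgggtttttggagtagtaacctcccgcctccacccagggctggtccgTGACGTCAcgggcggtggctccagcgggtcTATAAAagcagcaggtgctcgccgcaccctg
Cited1: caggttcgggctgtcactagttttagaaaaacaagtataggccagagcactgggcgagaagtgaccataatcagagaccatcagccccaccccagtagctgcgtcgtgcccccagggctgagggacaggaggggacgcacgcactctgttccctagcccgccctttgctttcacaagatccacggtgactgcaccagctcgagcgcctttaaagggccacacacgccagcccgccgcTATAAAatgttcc
Foxa1: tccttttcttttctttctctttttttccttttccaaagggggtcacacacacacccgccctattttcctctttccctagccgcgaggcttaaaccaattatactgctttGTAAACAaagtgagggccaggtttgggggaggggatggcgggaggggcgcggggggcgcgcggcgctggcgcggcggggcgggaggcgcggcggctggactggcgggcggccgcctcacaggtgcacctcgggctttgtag
The motifs searched on both strands were the oestrogen response element GGTCANNNTGACC, the forkhead core TGTTTAC, the site AGATAA of zinc finger factors such as Gata3, the STAT site TTCNNNGAA, the cAMP response half-site TGACG, its palindrome TGACGTCA, which holds that half-site on each strand, and the TATA box TATAAA. Areg held 3 half-site matches, of which a pair form the palindrome, and 1 TATA box. Cited1 held 1 TATA box and Foxa1 1 forkhead core, while the windows read for Prlr and Wnt4 held none of these motifs. Over 15374 windows of genes tested, the share with a match was 0.0065% for the oestrogen element, 2.19% for the forkhead core, 24.5% for the half-site, 2.38% for the palindrome and 7.01% for the TATA box. It was 6.28% for the AGATAA site and 5.93% for the STAT site. Of the 75 genes, 49 had 77 windows, of which 19.5% held the half-site, 1.3% the palindrome and 16.9% a TATA box. The forkhead core was in 3.9% of the 77, AGATAA in 5.19%, the STAT site in 3.9% and the oestrogen element in 0%. In 37.8% of all RefSeq windows, the first 20 transcribed bases opened a GENCODE transcript. A match describes the letters only.

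Areg, the EGF-receptor ligand through which oestrogen drives ductal growth, was at 225 and 187 CPM in THC, 31.3 and 19.6 CPM in TBC and 109 and 83.5 CPM in TLC. Both THC libraries exceeded every TLC library. Areg lay 2.06 ± 0.21 above the log2 midpoint (log2, SE; adjusted p = 0.00447, edgeR) and 1.76 above the arithmetic midpoint (adjusted p = 0.0394). Set directly against TLC, its difference of 1.09 had an adjusted p of 0.0579 in the same edgeR fit. Of the 19 EGF-receptor ligands and MAPK feedback genes tested, Areg alone rose and the others did not pass, with a list median of 0.53.

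Prlr, the prolactin receptor, was at 1393 and 1250 CPM in THC, 243 and 130 CPM in TBC and 718 and 781 CPM in TLC. Wnt4, the signal through which progesterone acts on basal cells, was at 68.2 and 62.4 CPM in THC, 16.1 and 9.75 CPM in TBC and 30.3 and 44.1 CPM in TLC. For both, the THC libraries were the highest of the 6. They exceeded the log2 midpoint by 1.82 ± 0.26 (Prlr, adjusted p = 0.0175) and 1.58 ± 0.23 (Wnt4, adjusted p = 0.0205; log2, SE, edgeR). Against the arithmetic midpoint the differences of 1.5 and 1.38 did not pass, with an adjusted p of 0.119 for Prlr and 0.110 for Wnt4.

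Cited1, a transcriptional co-activator of the oestrogen receptor, and Foxa1, the pioneer factor of that receptor, behaved differently in level. Cited1 was at 75.2 and 47.4 CPM in THC, 7.58 and 5.28 CPM in TBC and 63.7 and 57.1 CPM in TLC, so THC and TLC overlapped. Foxa1 was at 194 and 225 CPM in THC, 24.0 and 23.1 CPM in TBC and 256 and 353 CPM in TLC, so THC lay below both TLC libraries and far above TBC. Both passed against the log2 midpoint, with 1.63 ± 0.24 (adjusted p = 0.0211) and 1.31 ± 0.22 (adjusted p = 0.0418; log2, SE, edgeR). Against the arithmetic midpoint they were at 0.86 (Cited1, adjusted p = 0.387) and 0.36 (Foxa1, adjusted p = 0.944). The receptors Esr1 and Pgr did not pass against either midpoint. Esr1 was at 105 and 132 CPM in THC, 38.2 and 40.5 CPM in TBC and 90.2 and 112 CPM in TLC, with 0.91 against the log2 midpoint (adjusted p = 0.0887). Pgr was at 183 and 223 CPM in THC, 84 and 66.5 CPM in TBC and 110 and 166 CPM in TLC, with 1.0 (adjusted p = 0.140).

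**Figure D2:**
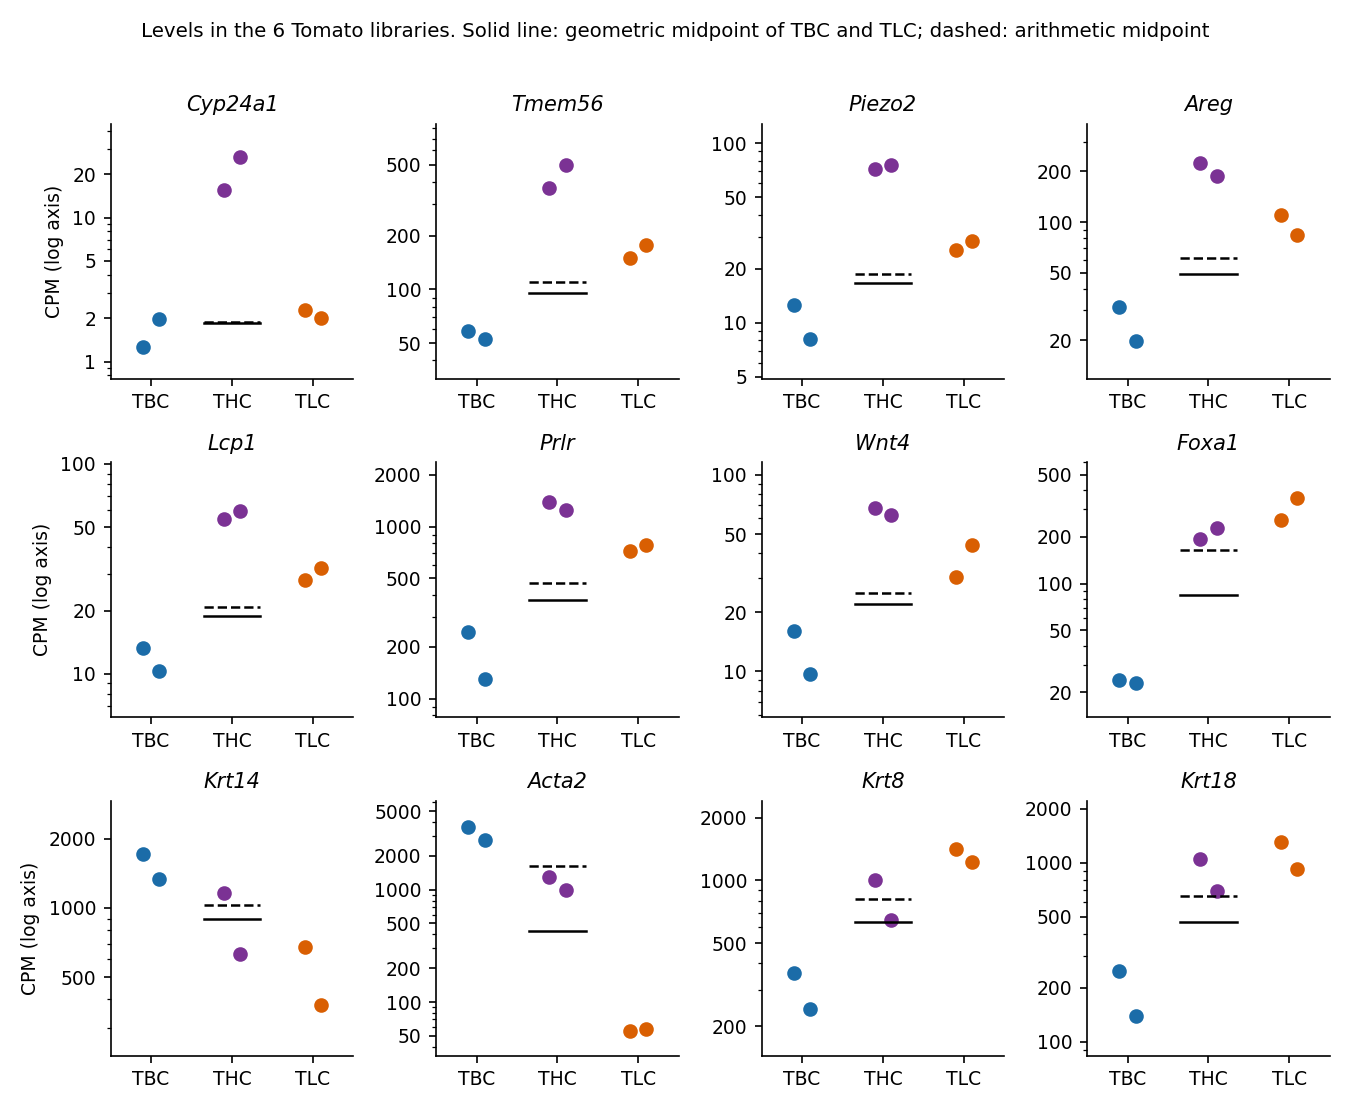
CPM on log axes in each of the 6 Tomato libraries for 12 genes, with 2 libraries per population as points. Lines in the THC column mark the geometric (solid) and arithmetic (dashed) midpoints of the TBC and TLC means. Both THC libraries lie above both lines for Cyp24a1, Tmem56, Piezo2, Areg, Lcp1, Prlr, Wnt4, Foxa1 and Krt18, and between them for Acta2.

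The 75 genes fell into 55 with a higher fitted level in TLC than in TBC, of which 43 passed between TLC and TBC, and 20 with a higher level in TBC, of which 5 passed. They are called luminal-side and basal-side below by the sign of this fitted difference alone, also where it did not pass. Over all genes, 5.59% passed as higher in TLC than in TBC and 8.02% as higher in TBC. All 75 were above the TBC mean and 66 were above the means of both TBC and TLC. In 58 of them both THC libraries were above all 4 TBC and TLC libraries, a pattern found in 7.37% of all genes, while both were below all 4 in 4.17% of all genes and in none of the 75, as their sign requires. Set against each lineage alone, 63 of the 75 were higher in THC than in TBC (2.57% of all genes) and 24 were higher than in TLC (1.52%). Both differences passed for 12 of them. The 75 were called on a high THC level in these same libraries, so these counts follow in part from that choice and are no separate support. No gene passed when both differences were tested together as 1 hypothesis (0%, smallest adjusted p 0.175, that of Cyp24a1), although 363 genes were above both and 21 below both at an unadjusted p under 0.05. With the library-number set as a replicate block, Cyp24a1 passed (adjusted p = 0.0311). DESeq2 called 2 genes above both, Cyp24a1 and Tmem56. A fit of the 6 Tomato libraries alone called 12. These included Cyp24a1, the milk gene Lalba and the endothelial markers Pecam1, Cdh5, Kdr, Plvap and Ptprb. The others were Adgrl4, Cd93, Selp, Zeb2 and Gm16548.

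The luminal-side genes off the midpoint were at a still higher level in the luminal cells without ablation label. Of the 55, 51 had a higher mean CPM in LC than in THC and 54 a higher mean in LC than in TLC. Among all 10205 genes with a higher fitted level in TLC than in TBC, 62.9% were higher in LC than in THC and 49.0% higher in LC than in TLC. Among the 1105 of these that passed between TLC and TBC, the shares were 84.8% and 62.5%, and among the 43 called off the midpoint they were 43 of 43 for both. Tmem56 stood at 1449 and 1757 CPM in LC, Prlr at 4247 and 4683 CPM, Areg at 453 and 378 CPM, and Piezo2 at 242 and 436 CPM. The order for these 4 genes was therefore BC and TBC lowest, then TLC, THC and LC. The mean log2 CPM of the hormone-sensing list was 7.11 and 7.57 in LC, 6.20 and 6.48 in THC, 5.53 and 6.03 in TLC, and 4.13 in both TBC libraries. LC differed from the Tomato populations in ablation and in marking, and these cannot be told apart.

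The basal-side genes named by rule were Mecom, Igf1, Sema3g, Gja5, Gbp4, Srgn, She and Rgs1, beside the list members Cd74, Eng and Egfl7. Of these, only Mecom, Sema3g and Gja5 passed between TLC and TBC. The name marks no gene, also not these 3, as one of the basal lineage. Mecom, a zinc finger factor, was at 16.3 and 18.6 CPM in THC, 6.79 and 4.76 CPM in TBC and 1.58 and 0.910 CPM in TLC. Sema3g, a secreted semaphorin of arterial endothelium, was at 24.0 and 20.3 CPM in THC, 8.84 and 7.18 CPM in TBC and 1.40 and 2.37 CPM in TLC. Gja5, the gap junction protein connexin 40 of arteries, was at 14.7 and 15.8 CPM in THC, 6.31 and 5.06 CPM in TBC and 2.11 and 1.27 CPM in TLC. All 3 had both THC libraries highest and both TLC libraries lowest, and exceeded the log2 midpoint by 2.74 ± 0.44, 2.48 ± 0.32 and 2.33 ± 0.31 (log2, SE), with an edgeR adjusted p of 0.0336, 0.0159 and 0.0175. Igf1, the growth factor made by stroma, exceeded it by 2.56 (adjusted p = 0.0441), the guanylate-binding protein Gbp4 by 2.32 (0.0243), the proteoglycan Srgn of blood cells by 2.30 (0.0497), the adaptor She by 2.27 (0.0441) and the G-protein regulator Rgs1 by 2.17 (0.0336). On the luminal side, the angiotensin receptor Agtr1a exceeded it by 2.32 (0.0205) and the chemokine Cxcl15 by 2.22 (0.0175).

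Markers of endothelium and of myeloid cells had their highest summed levels in the THC libraries. Of 22 endothelial markers tested, Eng and Egfl7 rose, 20 did not pass, and 22 had an unadjusted p under 0.05, with a median difference of 2.09 from the log2 midpoint. By comparison, 7.67% of all genes were higher in THC at an unadjusted p under 0.05. Both THC libraries were above all 4 others for 20 of the 22, against 7.37% of all genes. The summed level of the endothelial markers was 1269 and 1311 CPM in THC, 420 and 439 CPM in TBC, and 227 and 260 CPM in TLC. Pecam1 was at 183 and 161 CPM in THC. None of the 9 pericyte, 12 fibroblast and 15 myeloid markers passed, with medians of 2.01, 2.18 and 1.48. The summed fibroblast level was 1731 and 2585 CPM in THC, 3177 and 2089 CPM in TBC, and 235 and 412 CPM in TLC. The summed pericyte level was 520 and 392 CPM in THC, 302 and 187 CPM in TBC, and 352 and 419 CPM in TLC. THC thus overlapped TBC in the former and TLC in the latter. The summed myeloid level was 255 and 108 CPM in THC, 87.0 and 45.7 CPM in TBC, and 51.0 and 51.6 CPM in TLC. In bulk samples a change in the number of such cells and a change in RNA per cell cannot be told apart. Their part in the genes above was not tested as a cause.

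The level of endothelial markers also differed between the libraries of BC and of LC, whose labels differ (only the second of each is marked WT). BC replicate 1 had a summed endothelial level of 836 CPM and BC replicate 2 of 262 CPM, and the median log2 difference between these libraries was 1.74 over the 22 markers, with 18 above 1. It was 0.13 over the 55 luminal-side genes, with 1 above 1 (Gm10718), and 0.56 over the 20 basal-side genes, with 6 above 1 (Srgn, Galnt15, Gbp4, Gimap8, Mecom and She). Over all genes it was -0.06. LC replicate 1 also had a higher endothelial level than LC replicate 2, at 588 against 244 CPM. The medians there were 2.01 for the markers, 0.02 for the luminal-side genes and 0.41 for the basal-side genes. Areg, Prlr, Tmem56 and Cyp24a1, picked after the calls were known, differed between the BC libraries by -0.03, -0.11, -0.05 and 0.08. Cyp24a1 was at only 2.35 and 2.21 CPM there. The called endothelial markers Eng and Egfl7 differed by 0.85 and 0.92, and the arterial genes Sema3g and Gja5 by 0.31 and 0.06. A small difference between the BC libraries thus does not set a gene apart from endothelial genes. Each of these differences is between 1 library and 1 other and has no test. Whether endothelial cells had a part in any call, on either side, was not tested.

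**Figure D3:**
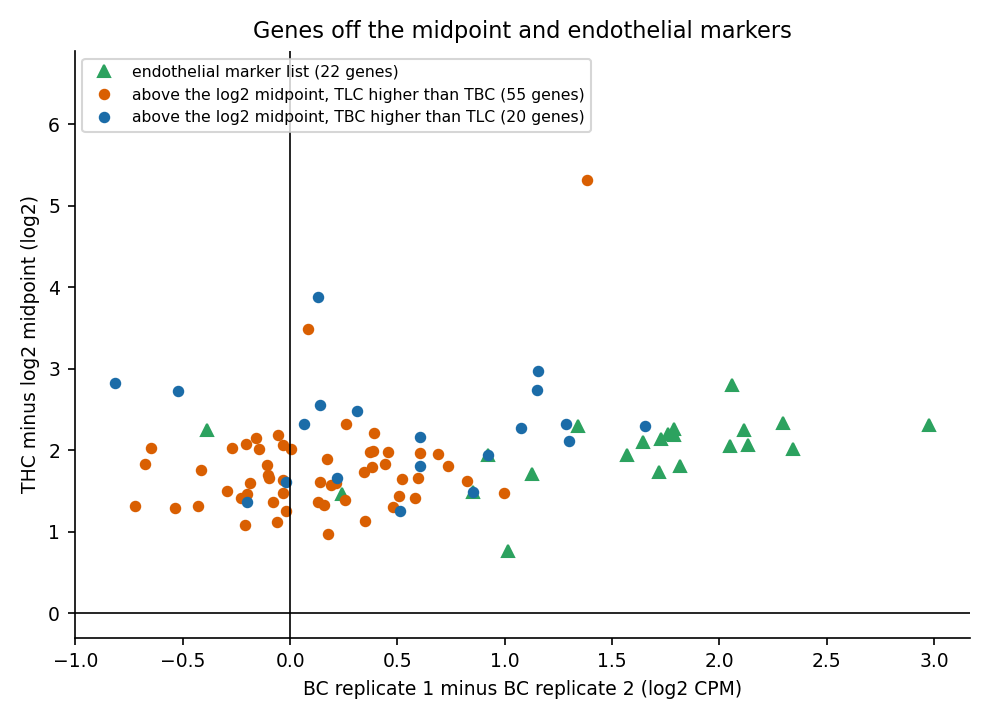
The x axis gives the log2 CPM difference between the 2 BC libraries and the y axis the difference of THC from the log2 midpoint. Endothelial markers (triangles, median 1.74 on the x axis) stand to the right of most luminal-side genes (orange, median 0.13), with the basal-side genes (blue, median 0.56) between them.

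No gene of the lineage lists outside the hormone-sensing one passed against a midpoint: none of the 20 basal, 20 pan-luminal or 16 progenitor and alveolar genes was called in either direction. For the basal list the sign depended on the kind of midpoint. Its median was 0.38 against the log2 midpoint, with 13 of 20 positive (54.9% of all genes). Against the arithmetic midpoint it was -0.59, with 0 of 20 positive (47.3% of all genes). Acta2, the smooth muscle actin, was at 1292 and 997 CPM in THC, 3643 and 2742 CPM in TBC, and 55.6 and 58.0 CPM in TLC. It lay 1.43 above the log2 midpoint (adjusted p = 0.156) and at -0.51 against the arithmetic one (adjusted p = 0.967). Krt14 was at 1162 and 628 CPM in THC, 1724 and 1331 CPM in TBC, and 676 and 380 CPM in TLC, with -0.01 (adjusted p = 0.999). Its THC and TLC libraries overlapped. Trp63, Krt5 and the oxytocin receptor Oxtr were at 0.21, 0.50 and 0.68 against the log2 midpoint and at -0.70, -0.20 and -1.11 against the arithmetic one.

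Krt8 and Krt18, the paired luminal keratins, were at 1005 and 649 CPM and at 1044 and 691 CPM in THC. Their levels were 361 and 241 CPM and 249 and 140 CPM in TBC, and 1418 and 1226 CPM and 1302 and 920 CPM in TLC. The 2 THC libraries lay between the lineages for Krt8, and overlapped TLC for Krt18. They stood at 0.39 (adjusted p = 0.872) and 0.90 (adjusted p = 0.341) against the log2 midpoint, and Krt19 and Epcam at 0.97 (adjusted p = 0.105) and 0.53 (adjusted p = 0.539). Elf5, the alveolar regulator, was at 40.3 and 106 CPM in THC, 6.63 and 13.1 CPM in TBC, and 97.4 and 81.8 CPM in TLC, with 1.31 (adjusted p = 0.204). Its THC libraries differed from each other more than the TLC libraries did.

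Where THC lay between the lineages was described for genes that passed between TLC and TBC with at least a 4-fold difference, on a scale where 0 is TBC and 1 is TLC. On log2 levels, the 850 genes higher in TBC had a median position of 0.38 (quartiles 0.28 and 0.47) and the 510 genes higher in TLC one of 0.76 (0.62 and 0.90). In CPM the medians were 0.68 and 0.54. Genes of both sides were thus nearer to the lineage that expressed them on the log2 scale, with 80.1% and 88.6% above the log2 midpoint, whereas 18.5% and 57.5% were above the arithmetic midpoint. From a 16-fold difference on, 222 genes higher in TBC and 80 higher in TLC had median positions of 0.32 and 0.71 on log2 levels. In CPM these were 0.71 and 0.36, and 8.56% and 32.5% were above the arithmetic midpoint. The majority of the genes higher in TLC thus turned. By list, the median position on log2 levels was 0.38 for 15 basal genes, 0.76 for 12 pan-luminal genes, 0.86 for 7 progenitor and alveolar genes and 1.02 for 4 hormone-sensing genes. These positions reuse the TBC and TLC libraries that chose the genes and carry no test. Without THC replicate 2 the median of the genes higher in TBC was 0.47 on log2 levels, the highest of the fits that left out a library.

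**Figure D4:**
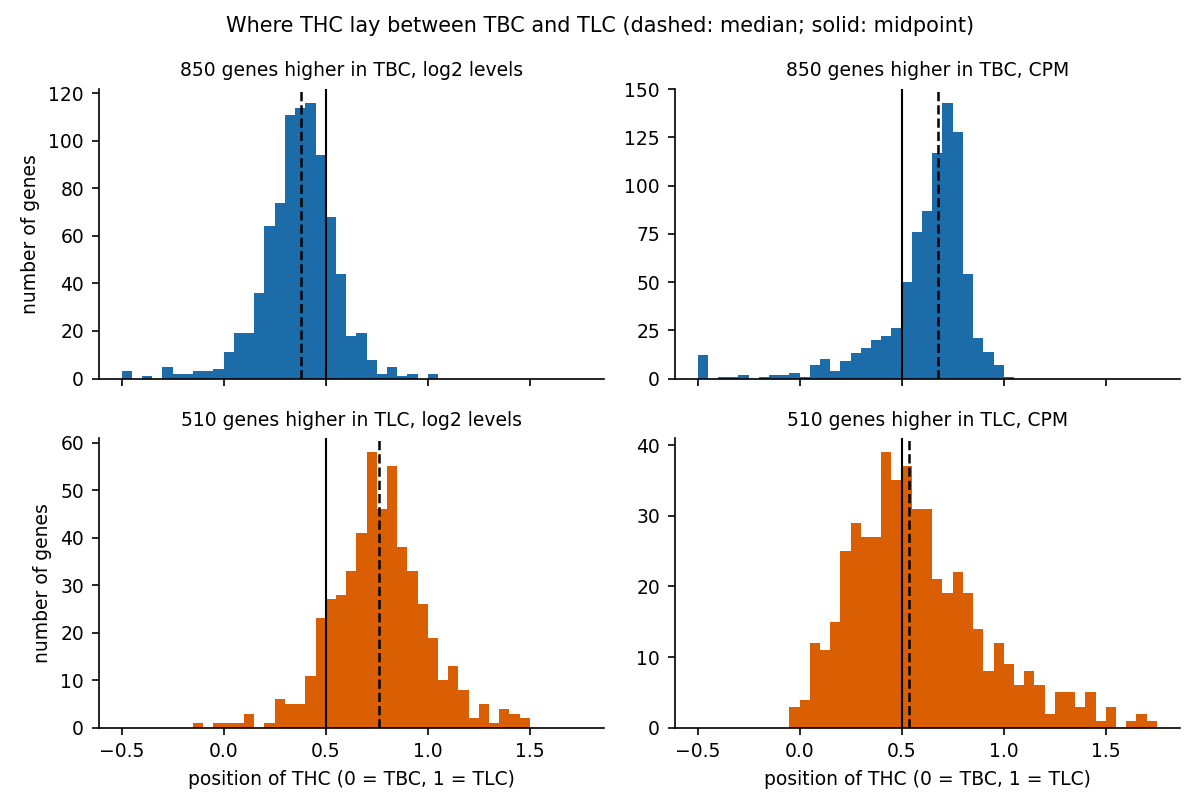
Number of genes by the position of THC between TBC (0) and TLC (1), for 850 genes higher in TBC (blue) and 510 higher in TLC (orange), on log2 levels (left) and in CPM (right). Dashed medians are 0.38 and 0.76 on log2 levels and 0.68 and 0.54 in CPM, and values beyond the range stand in the end bars.

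Among the 6 Tomato libraries, most milk genes had their highest levels in those of THC, with wide variation between libraries. The summed level of the list was 1781 and 2399 CPM in THC against 2004 and 918 CPM in LC, so LC replicate 1 lay above THC replicate 1. Of 12 genes for milk proteins and fat globule proteins, 8 had enough counts. All 8 were positive, against 54.9% of all genes, with a median of 2.09, and none passed. For 6 of the 8, both THC libraries were above all 4 others, a pattern found in 7.37% of all genes. Csn2, which encodes beta-casein, was at 336 and 481 CPM in THC, 39.5 and 81.4 CPM in TBC, and 22.3 and 133 CPM in TLC, with 2.57 ± 0.88 (log2, SE; adjusted p = 0.415, edgeR). Lalba, alpha-lactalbumin, was at 86.0 and 50.9 CPM in THC, 9.47 and 8.21 CPM in TBC, and 13.5 and 14.6 CPM in TLC, with 2.61 (adjusted p = 0.122). For both genes the THC libraries were the highest of the 6. Between the BC libraries the milk list differed by a median of 1.87 (log2), so these genes also varied where no ablation was labelled. Btn1a1, a fat globule membrane protein, came nearest to the threshold, with 1.88 (adjusted p = 0.0537).

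Among the remaining lists, Cd74, the class II invariant chain, was the only one of 14 antigen presentation genes to pass. Cd74 was at 158 and 64.0 CPM in THC, 41.2 and 44.8 CPM in TBC, and 30.5 and 25.8 CPM in TLC, with 1.66 (adjusted p = 0.0441, edgeR). The THC libraries were highest, but they differed from each other by more than the other libraries did, and the myeloid markers moved the same way between them. The list median was 0.76, with 14 of 14 positive against 54.9% of all genes. Cldn8, a tight junction claudin, was the only one of 20 junction genes to pass, with 18.2 and 26.5 CPM in THC, 3.47 and 5.57 CPM in TBC and 16.7 and 18.6 CPM in TLC, and a difference of 1.33 (adjusted p = 0.0489). Its THC and TLC libraries overlapped. The plakophilins Pkp1 and Pkp3 of the same list went the other way in level. Pkp1, a desmosomal plaque protein, was at 186 and 179 CPM in THC, 260 and 233 CPM in TBC, and 391 and 493 CPM in TLC. THC was below all 4 other libraries, and its difference of -0.85 had the smallest adjusted p of the genes below the log2 midpoint (0.120).

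The mitosis list had 24 of 24 positive members with a median of 0.70 and none that passed, and the interferon-stimulated list 24 of 24 with a median of 0.53 and none that passed. By comparison, 54.9% of all genes were positive. Mki67, the proliferation marker, was at 396 and 499 CPM in THC, 69.9 and 251 CPM in TBC, and 582 and 466 CPM in TLC, with 0.62 (adjusted p = 0.878). THC and TLC overlapped, and the TBC libraries differed from each other. The interferon median was -0.04 without THC replicate 1, and the mitosis median was 0.38 without TBC replicate 1 and 1.48 without TBC replicate 2. Tnf, the inflammatory cytokine, was at 22.9 and 26.1 CPM in THC, 7.10 and 3.74 CPM in TBC, and 28.4 and 29.4 CPM in TLC, with 1.0 (adjusted p = 0.343). Of 22 TNF and NF-kappaB targets, 18 Notch genes, 13 Wnt targets, 16 regulators of epithelial to mesenchymal transition, 12 YAP and TAZ targets and 16 p53 targets, none passed, with medians of 0.50, 0.48, -0.07, 0.76, 0.03 and 0.15. Ribosomal protein genes had a median of 0.00.

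**Figure D5:**
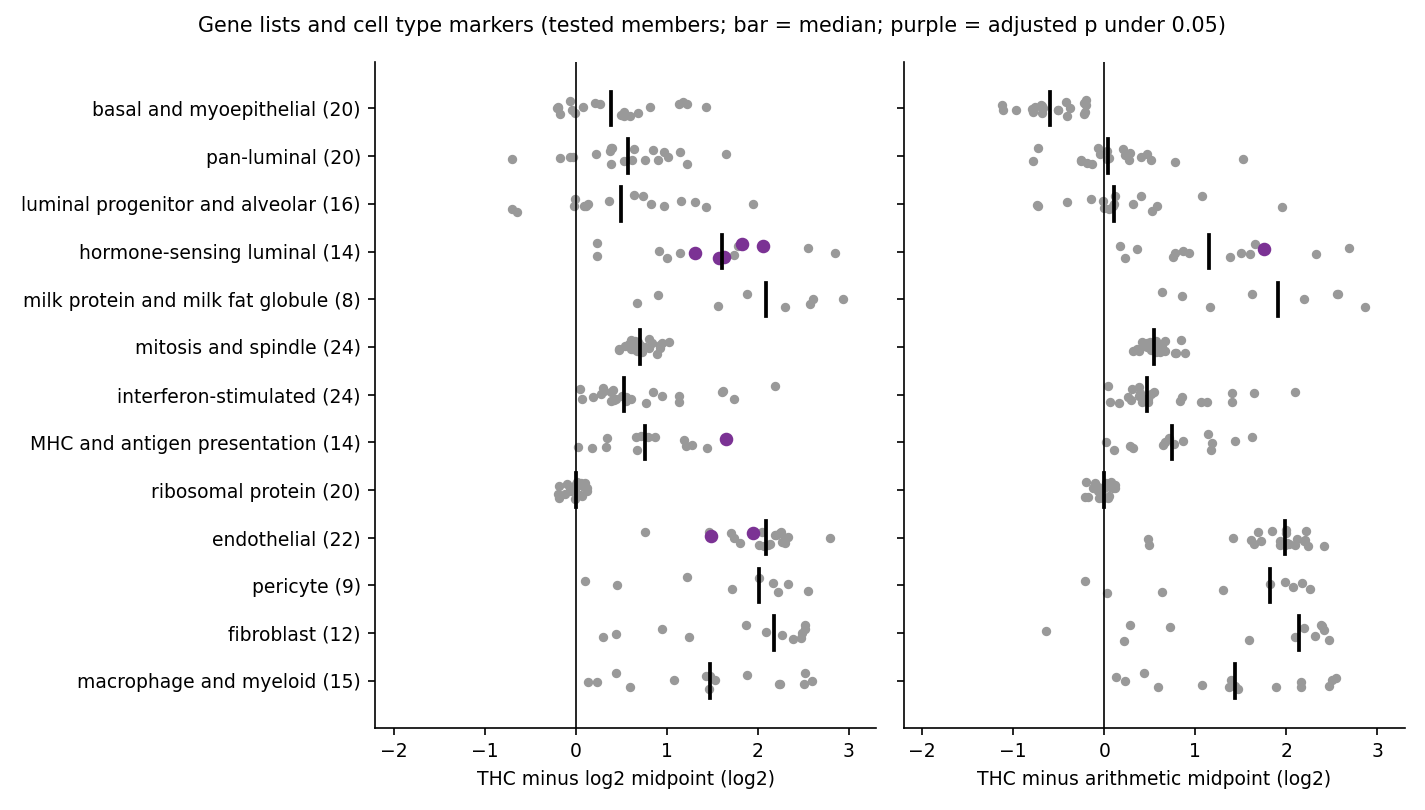
Log2 difference of THC from the log2 midpoint (left) and the arithmetic midpoint (right) for the tested members of 9 gene lists and 4 cell type marker lists, with the number of members in brackets and medians as bars. The basal median moves from 0.38 to -0.59 between the panels, whereas the hormone-sensing (1.60 and 1.15) and endothelial (2.09 and 1.99) medians stay above 0.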

How the data were processed

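RNA of sorted mammary cells was extracted with the RNeasy Micro kit (Qiagen) and sequenced from Ovation Solo libraries (NuGen), per the labels. The deposited values are raw read counts per Ensembl gene. STAR, HTSeq and the build GRCm38 (mm10) are listed in the submitters' processing notes. Tool versions and whether counting used strand were not given, so values of genes with an antisense partner or near-identical copies (H2-Q6, Gbp4, Gbp9, Gm10718) are uncertain.

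Summary entries were removed, and 49412 of 49671 gene identifiers were matched to GENCODE M21. After filterByExpr, 19757 genes were tested with edgeR 4.0.16 in R 4.3.3 (TMM factors, robust quasi-likelihood F-test, all 10 libraries, 1 coefficient per population, 5 residual degrees of freedom). CPM use library totals scaled by these factors. The arithmetic midpoint was tested in the same framework by comparing the full fit with a fit held to that midpoint. A gene above or below both lineages took the larger p of both tests. The scripts were tested on simulated data. Depth was 2757773 to 13601753 counts in the 6 libraries compared. Replicates follow the order of the sample records.

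The members, the 24 gene lists and the 10 marker lists were chosen with earlier results of these data known. Genes were named by rule: with at least 10 CPM and the same sign in both library-number sets, the 12 largest differences, up to 3 called members per list, and 16 anchor genes. Piezo2, Lcp1, Cited1, Pkp1, Pkp3, Pecam1, Lalba, Btn1a1, Galnt15, Gimap8 and Gm10718 were named after their values were seen. Levels in BC and LC were examined after the calls were known. DESeq2 1.42.0, limma 3.58.1 (voom), other factors, filters, weights and left-out libraries were alternatives.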

Additional observations from a re-analysis of the deposited data

How the results depend on the processing

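No called result changed direction under any alternative run. The count above the log2 midpoint (75) was 39 with RLE factors, 22 with upper-quartile factors, 301 with DESeq2, 71 with limma-voom, 688 with no low-count filter, 29 at 5 CPM in 2 libraries, 320 with the 6 Tomato libraries only, 52 with counts thinned to the shallowest library, 5 against the arithmetic midpoint, and 259 and 64 with TLC weights of 0.25 and 0.75. Leaving out 1 library gave 1 to 28, where a population is left with 1 library whose spread is taken from the others. The count above the arithmetic midpoint (5) was 2 with RLE, 2 with upper-quartile factors, 402 with no filter, 2 at 5 CPM, 168 with the 6 libraries, and 0 to 3 with 1 library left out. Genes below the log2 midpoint (0) numbered 5 with DESeq2, 21 with no filter, 1 with the 6 libraries and 3 at a TLC weight of 0.25. Genes below the arithmetic midpoint (0) numbered 72 with no filter and 1 with the 6 libraries. Genes above both lineages (0) numbered 2 with DESeq2, 68 with no filter and 12 with the 6 libraries. The causes were not tested. The median log2 position of the genes higher in TLC (0.76) was 0.73 from 2-fold and 0.71 from 16-fold. It was 0.746 with RLE, 0.747 with upper-quartile factors, 0.748 with DESeq2, 0.744 with limma-voom, 0.754 with no filter, 0.768 at 5 CPM, 0.753 with the 6 libraries, and 0.69 to 0.83 with 1 library left out. That of the genes higher in TBC (0.38) was 0.44 from 2-fold, 0.32 from 16-fold, and 0.35 to 0.47 with 1 library left out.

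No pairing of libraries is stated, and replicates share only a set of library numbers. Deviations from the population means within a set correlated across genes at 0.05 to 0.53 between populations. With this set as a replicate block, 326 genes were above the log2 midpoint and 3 below, 113 above the arithmetic midpoint and 1 below, and 1 above both lineages, and the 75 calls were all kept. The 75 genes stayed positive in every alternative in which they were tested, which was 72 of them at 5 CPM and with thinned counts. The shallow THC library limits genes under about 1.16 CPM.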

Other observations

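Genes below the midpoint were called by some alternatives and by none of the main tests. DESeq2 called 5 genes below the log2 midpoint (Ntn4, Ltbp3, Pkp1, Col4a6 and BC034090), and the fit with the library-number set called 3 (Pkp1, Nebl and Scara3). Ntn4 and Col4a6 encode basement membrane proteins and Ltbp3 a protein of the matrix that binds latent TGF-beta. Ntn4 was at 38.7 and 55.6 CPM in THC, 198 and 122 CPM in TBC, and 50.7 and 45.7 CPM in TLC. Its THC libraries overlapped TLC, and edgeR gave -0.88 against the log2 midpoint (adjusted p = 0.175) and -1.12 against the arithmetic one (adjusted p = 0.184). Ltbp3 was at 238 and 244 CPM in THC, 475 and 423 CPM in TBC, and 330 and 419 CPM in TLC, below all 4 other libraries, with -0.76 (adjusted p = 0.183). Col4a6 was at 120 and 151 CPM in THC, 361 and 317 CPM in TBC, and 136 and 164 CPM in TLC, with -0.74 (adjusted p = 0.179). These genes were picked out after their values were seen.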
